A study of Mus musculus with 22 samples.

Results

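Schwann cell, fibroblast and meningeal genes were examined in RNA sequencing of whole mouse spinal cord. The set holds 36 genes, 16 of Schwann cells and 20 of fibroblasts and meninges, out of 38924 gene IDs in the files. Members were chosen by name, and all 36 were found by matching Ensembl IDs to symbols. The libraries came from mice aged 7 months on a B6N;B6J background. The genotypes were homozygous E196K/E196K for the tyrosyl-tRNA synthetase gene Yars (HOM, 10 libraries), heterozygous E196K/+ (HET, 6 libraries) and wild type (WT, 6 libraries). Replicate numbers follow the order of deposition. HOM 3, the third HOM library in that order, is shown apart from the other 21. The labels do not say that each library came from a separate animal, so p-values measure only the spread between these libraries.

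Schwann cells wrap axons of peripheral nerves and of the nerve roots in myelin made with proteins that central oligodendrocytes lack or use little, such as periaxin. Fibroblasts lay down the collagens and small proteoglycans of nerve sheaths and of the membranes around the cord. Meningeal cells, a related lineage, carry transporters and enzymes that serve the barrier between cerebrospinal fluid and blood. Oligodendrocytes share part of the Schwann cell program, including Mag.

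Library depth ran from 24.4 M to 42.8 M expected counts. Levels are given as CPM, counts scaled to a fixed total by the TMM-adjusted sum over tested genes. Yars transcript ranged from 109 to 129 CPM in HOM, from 110.3 to 123 CPM in HET and from 109 to 118 CPM in WT; an amino acid change need not move it, so it does not check the labels. The oligodendrocyte gene Mbp was at 8682 CPM in HOM 3 and at 10182 to 12569 CPM in the other 21 libraries, so central myelin RNA was abundant in each. Sample titles start with 1 of 3 numbers of unstated meaning, 39992, 40411 or 40412. Number 39992 holds 5 HOM libraries, HOM 3 among them, and 1 WT library, WT 1, but no HET library. Number 40411 holds 3 HOM, 2 WT and 1 HET library, and 40412 holds 2 HOM, 3 WT and 5 HET libraries. The genotypes are thus spread unevenly over the title numbers, and comparisons with HET in particular are not free of them. In bulk tissue, fewer cells of a type and less RNA per cell cannot be told apart.

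Promoter sequences are shown for the pair of Schwann cell and the pair of fibroblast genes that stood furthest above the other libraries in HOM 3, among members over 10 CPM there with an entry in the RefSeq table. They were picked after the values were seen, and each gives the 250 bases before the RefSeq start in GRCm38.p6, plus strand. Capitals mark letters matching the CCAAT box by its letters, GGGCGG for the GC box, TATAAA for the TATA box (searched on the strand of the gene only) or ACAAAG for the SOX10 core; the others were searched on both strands, as was the EGR2 motif GCGNGGGCG, which can overlap a GC box.
Prx, chr7:27499074-27499323: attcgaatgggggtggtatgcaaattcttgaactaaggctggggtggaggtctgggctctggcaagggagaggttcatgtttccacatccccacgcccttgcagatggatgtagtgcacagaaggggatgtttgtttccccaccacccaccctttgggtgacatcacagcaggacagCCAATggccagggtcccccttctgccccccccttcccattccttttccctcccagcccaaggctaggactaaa
Cldn19, chr4:119255191-119255440: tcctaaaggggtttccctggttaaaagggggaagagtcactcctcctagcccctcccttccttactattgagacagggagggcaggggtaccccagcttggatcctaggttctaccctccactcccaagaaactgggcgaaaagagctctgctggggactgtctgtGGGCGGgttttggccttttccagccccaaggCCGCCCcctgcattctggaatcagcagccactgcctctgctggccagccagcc
Ogn, chr13:49607765-49608014: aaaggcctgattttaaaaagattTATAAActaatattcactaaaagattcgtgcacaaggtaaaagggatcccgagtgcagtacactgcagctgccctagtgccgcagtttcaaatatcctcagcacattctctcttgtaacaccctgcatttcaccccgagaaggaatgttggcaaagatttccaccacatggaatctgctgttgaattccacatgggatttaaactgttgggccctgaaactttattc
Col3a1, chr1:45311288-45311537: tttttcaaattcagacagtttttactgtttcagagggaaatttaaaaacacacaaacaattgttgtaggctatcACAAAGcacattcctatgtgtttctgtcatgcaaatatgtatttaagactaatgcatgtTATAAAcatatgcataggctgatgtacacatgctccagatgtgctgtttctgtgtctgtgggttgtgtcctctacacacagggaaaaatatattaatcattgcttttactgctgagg
The Prx window held a CCAAT box that begins 73 bases before the start, and Cldn19 held 2 GC boxes, the nearer one beginning 53 bases before it. Ogn held TATAAA 227 bases before its start, and Col3a1 held it 117 bases before, with ACAAAG at 176. A RefSeq promoter was matched for 27 of the 36 members. Of the 12 Schwann cell windows, 1 (Scn7a) held the EGR2 motif and 0 held ACAAAG, against 4.7% and 16.46% of all 32851 windows of this length. Among the 15 fibroblast and meningeal windows these counts were 1 (Foxc1) and 2 (Col3a1 and Slc22a6). GC boxes stood in 6 of 12 and 6 of 15 windows, against 32.74% of all, CCAAT in 3 of 12 and 5 of 15, against 33.85%, and TATAAA in 0 of 12 and 2 of 15, against 7.59%. The median GC content was 60.2% in Schwann cell windows and 56.0% in fibroblast and meningeal windows, against 52.4% over all windows. The set of all windows counts every RefSeq start, while each member has 1 window. A match is a description of letters and a missing one says only that they are not in the window.

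In HOM 3 most of the myelinating Schwann cell members stood far above every other cord, and the other Schwann cell members differed less. HOM 3 had the highest level of the 22 libraries for 15 of the 16 Schwann cell members, all 12 fibroblast matrix members and 6 of the 8 meningeal members. Over all 16974 tested genes HOM 3 was the highest library for 17.1%. The summed level of the Schwann cell members was 2108 CPM in HOM 3, against 163 to 174 CPM in the other 9 HOM libraries, 171 to 184 CPM in HET and 162 to 179 CPM in WT. For the fibroblast and meningeal members the sum was 1104 CPM in HOM 3, against 379 to 450 CPM in the other HOM libraries, 350 to 445 CPM in HET and 363 to 511 CPM in WT. Elsewhere the myelinating Schwann cell members Prx, Cldn19, Egr2, Dhh, Pmp2, Mpzl2 and Plekha4 had medians below 1 CPM. Pmp22, Drp2, Cdh19, Ptgds and Igfbp2, which glia of the cord also express, had medians above 10 CPM. So did the fibroblast and meningeal members Col1a2, Col6a1, Igf2, Bgn and Dcn. What sets these baselines was not tested. HOM 3 is 1 library and was set apart with its values known, so its levels are given as a description, and intervals on its levels cover counting error only.

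**Figure D1:**
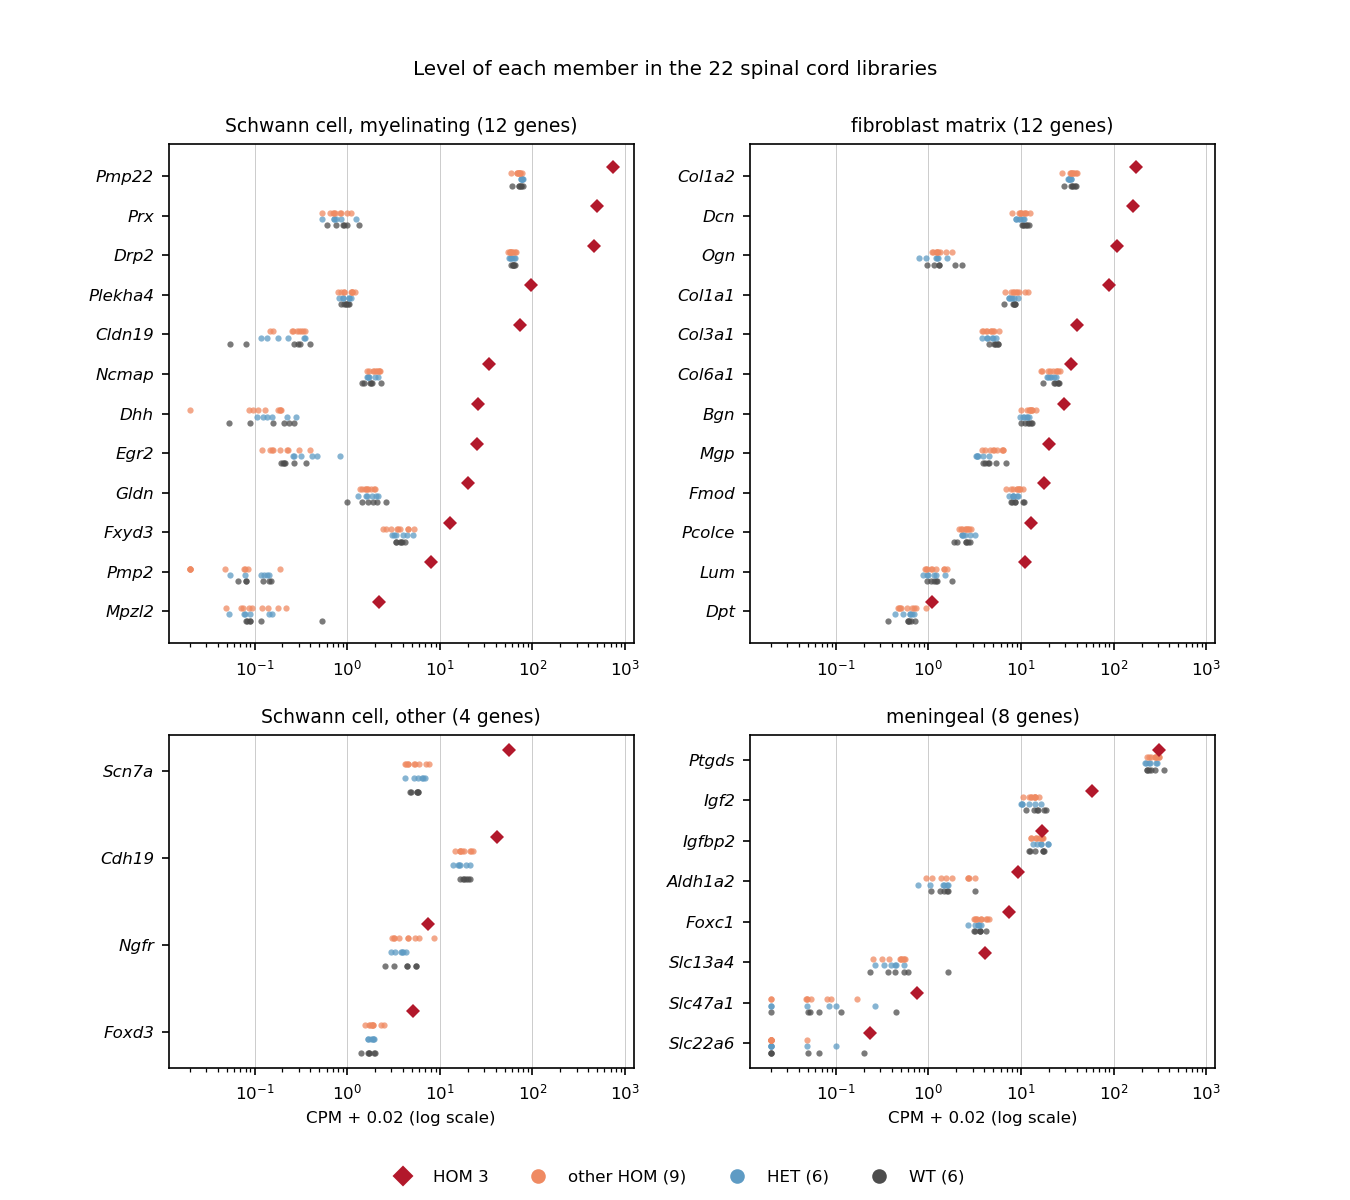
Level of each of the 36 members in each library, as CPM + 0.02 on a log scale; diamonds are HOM 3, circles the other 9 HOM, the 6 HET and the 6 WT libraries. HOM 3 lies to the right of every circle for 15 of 16 Schwann cell and 18 of 20 fibroblast and meningeal members, while the circles of the genotypes overlap.

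Structural proteins of peripheral myelin had the highest levels of the Schwann cell members in HOM 3. Prx, periaxin of the Schwann cell plasma membrane, was at 500.0 CPM in HOM 3 (exact 95% Poisson interval 492 to 508). Across the remaining libraries it ranged from 0.508 to 1.07 CPM in HOM (median 0.718), from 0.515 to 1.23 CPM in HET (median 0.718) and from 0.582 to 1.31 CPM in WT (median 0.888). The 3 genotypes overlapped over this low range, and HOM 3 was 679-fold above the median of the other 21. Pmp22, a tetraspan myelin protein that oligodendrocytes and other cells also express, was at 734 CPM in HOM 3, against 58.1 to 76.3 CPM in the other HOM libraries (median 71.7), 75.4 to 78.4 CPM in HET (median 77.3) and 60.7 to 78.9 CPM in WT (median 74.1). Its baseline was much higher than that of Prx, and its ratio was 9.96. Drp2, a dystrophin relative that anchors periaxin at the membrane, was at 467 CPM in HOM 3, against 54.1 to 66.5 CPM in the other HOM libraries (median 58.0), 56.1 to 64.3 CPM in HET (median 59.5) and 58.9 to 64.3 CPM in WT (median 61.8). Here too the genotypes overlapped apart from HOM 3.

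Junction, adaptor and signalling genes of the myelinating Schwann cell had low baselines. Plekha4, a phosphoinositide-binding adaptor, was at 96.0 CPM in HOM 3, against 0.773 to 1.19 CPM in the other HOM libraries (median 1.09), 0.804 to 1.08 CPM in HET (median 0.953) and 0.827 to 1.03 CPM in WT (median 0.943). Cldn19, the claudin of Schwann cell tight junctions, was at 72.7 CPM in HOM 3, against 0.128 to 0.327 CPM in the other HOM libraries (median 0.267), 0.0971 to 0.326 CPM in HET (median 0.185) and 0.0348 to 0.374 CPM in WT (median 0.261). Both genes were about a single CPM or less wherever HOM 3 was left aside, and the genotypes overlapped. Egr2, the transcription factor that drives peripheral myelination, was at 24.99 CPM in HOM 3 and had a median of 0.208 CPM in the other 21 libraries, a ratio of 120. Dhh, the hedgehog ligand that Schwann cells send to the perineurium, reached 856 counts in HOM 3 and 91 counts in the other 21 libraries together, 26.0 CPM against a median of 0.134 CPM. Dhh overlaps Rhebl1 on the same strand, which was at 2.61 CPM in HOM 3 and 2.85 CPM in the median of the others. Pmp2, a fatty acid carrier of peripheral myelin, had 261 counts in HOM 3 and 46 in the other 21 libraries together, and Mpzl2, an adhesion protein, had 72 and 72.

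Ncmap, Gldn and Fxyd3 complete the 12 myelin genes. Ncmap, a small membrane protein of non-compact myelin, was at 34.3 CPM in HOM 3 and 1.42 to 2.28 CPM elsewhere, 18.7-fold above the median. Gldn, gliomedin of the nodes of Ranvier, was at 20.2 CPM in HOM 3 and 0.980 to 2.59 CPM elsewhere, 12.3-fold. Fxyd3, a regulator of the sodium pump, was at 12.9 CPM in HOM 3 and 2.43 to 5.28 CPM elsewhere, the smallest ratio of the 12 at 3.51. Fxyd3 overlaps Lgi4 on the opposite strand over 2764 bases, and Prx overlaps an antisense transcript, Gm15541. The libraries were stranded, but the strand setting of the counting is not given in the sources used here. Whether the counts separate the reads of such pairs is therefore not known. Lgi4 was at 65.3 CPM in HOM 3, against a median of 57.5 CPM in the others. Gm15541 was at 3.95 CPM in HOM 3, against a median of 0.888 CPM in the others.

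Members known from non-myelinating Schwann cells and the neural crest differed less. Scn7a, an atypical sodium channel of non-myelinating Schwann cells and sensory neurons, was at 55.5 CPM in HOM 3, against 4.20 to 7.61 CPM in the other HOM libraries (median 5.22), 4.21 to 6.96 CPM in HET (median 6.05) and 4.70 to 5.85 CPM in WT (median 5.61). Cdh19, a cadherin of Schwann cell precursors and glia, was at 41.4 CPM in HOM 3, against 14.4 to 22.9 CPM in the other HOM libraries (median 17.3), 13.9 to 21.3 CPM in HET (median 16.1) and 16.4 to 21.2 CPM in WT (median 18.5). The genotypes overlapped for both, and for Cdh19 HOM 3 lay only 1.81-fold above the next library. Foxd3, a neural crest transcription factor, was at 5.17 CPM in HOM 3, 2.85-fold above the median. Ngfr, the p75 neurotrophin receptor, was the 1 Schwann cell member with a higher level elsewhere: 7.51 CPM in HOM 3 and 8.59 CPM in HOM 8. The median ratio was 66.5 over the 12 myelinating and 2.59 over the 4 other Schwann cell members.

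Fibroblast matrix genes were also highest in HOM 3, with a higher baseline in the other cords. Col1a2, a chain of type I collagen, was at 174 CPM in HOM 3, against 27.9 to 39.8 CPM in the other HOM libraries (median 35.3), 31.99 to 34.995 CPM in HET (median 32.8) and 29.3 to 38.9 CPM in WT (median 35.8). Col1a1, its partner chain, was at 89.3 CPM in HOM 3, against 6.62 to 11.8 CPM in the other HOM libraries (median 8.90), 7.37 to 9.16 CPM in HET (median 7.83) and 6.51 to 8.60 CPM in WT (median 8.32). The ratio to the median of the other 21 was 4.97 for Col1a2 and 10.7 for Col1a1, and the genotypes overlapped. Dcn, decorin, a proteoglycan that binds collagen fibrils, was at 161 CPM in HOM 3, against 7.91 to 12.5 CPM in the other HOM libraries (median 9.99), 8.72 to 10.8 CPM in HET (median 9.57) and 10.1 to 12.047 CPM in WT (median 10.9). Ogn, osteoglycin, of the same proteoglycan family, was at 108 CPM in HOM 3, against 1.08 to 1.80 CPM in the other HOM libraries (median 1.22), 0.774 to 1.55 CPM in HET (median 1.21) and 0.934 to 2.30 CPM in WT (median 1.29). Ogn had the largest ratio of the fibroblast and meningeal members, 87.8, and was the only one of them above 50-fold. Ogn overlaps Cenpp on the opposite strand over 16456 bases. Cenpp was at 0.942 CPM in HOM 3, against a median of 0.663 CPM in the others.

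The other 8 matrix members ran from 1.51-fold to 9.84-fold. Lum and Fmod, further collagen-binding proteoglycans, were at 11.0 and 17.5 CPM in HOM 3 (ratios 9.84 and 2.03), and Bgn, biglycan, at 29.0 CPM (2.41). Col3a1, the type III collagen chain, was at 40.0 CPM (8.32), and Pcolce, which enhances the trimming of procollagen, at 12.6 CPM (5.00). Mgp, an inhibitor of calcification, was at 20.002 CPM (4.51). Dpt, dermatopontin of the matrix, had 35 counts in HOM 3, 1.06 CPM, and lay only 1.14-fold above HOM 7. Col6a1, a chain of type VI collagen, was at 34.5 CPM in HOM 3, against 16.6 to 26.3 CPM in the other HOM libraries (median 22.4), 19.2 to 23.6 CPM in HET (median 20.9) and 17.2 to 25.5 CPM in WT (median 23.9), the smallest ratio of the matrix genes.

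Meningeal members ranged widely in level and in ratio. Slc13a4, a sulfate transporter of the meninges and choroid plexus, was at 4.01 CPM in HOM 3, against a median of 0.421 CPM in the other 21 (9.53-fold). Slc47a1, a transporter of organic cations, had 24 counts in HOM 3 and 45 counts in the other 21 libraries together, and Slc22a6, an organic anion transporter, 7 and 13 counts. Aldh1a2, which makes retinoic acid, was at 9.15 CPM in HOM 3 and at 0.751 to 3.15 CPM elsewhere, and Foxc1, a transcription factor of meningeal development, at 7.48 CPM and 2.63 to 4.48 CPM. Igf2, a growth factor made by meninges, was at 59.0 CPM in HOM 3, against 10.4 to 15.6 CPM in the other HOM libraries (median 13.9), 9.86 to 16.4 CPM in HET (median 11.2) and 11.4 to 18.7 CPM in WT (median 15.1). Igf2 overlaps its antisense transcript Igf2os, which was at 0.213 CPM in HOM 3.

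Ptgds and Igfbp2 did not have their highest level in HOM 3. Ptgds, the prostaglandin D synthase secreted by meninges and also expressed by oligodendrocytes, was at 309 CPM in HOM 3, against 231 to 307 CPM in the other HOM libraries (median 281), 215 to 295 CPM in HET (median 244) and 231 to 353 CPM in WT (median 246). WT 1 held the highest value, and the ratio of HOM 3 to the median was 1.22. Igfbp2, an IGF-binding protein of meninges and glia, was at 16.99 CPM in HOM 3 and at 12.2 to 19.6 CPM elsewhere, a ratio of 1.05.

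Schwann cell members differed more in HOM 3 than fibroblast and meningeal members. The median ratio of HOM 3 to the other 21 libraries was 15.5 over the 16 Schwann cell members and 4.97 over 19 fibroblast and meningeal members, with Slc22a6 left out because its median elsewhere is 0, against 1.003 over all tested genes. Counting every member by the pooled counts of the other 21 gave 15.1 over 16 and 5.04 over 20. More than 5-fold were 12 of 16 and 8 of 20 members, against 0.99% of tested genes, and more than 50-fold were 6 of 16 and 1 of 20, against 0.0825%. The gap between the families rests on the 12 myelin genes, since the 4 other Schwann cell members had a median of 2.59, below that of the fibroblast and meningeal members. A ratio also depends on the level elsewhere. Myelin genes with a median above 1 CPM elsewhere had ratios of 9.96 (Pmp22), 7.78 (Drp2), 18.7 (Ncmap), 12.3 (Gldn) and 3.51 (Fxyd3). Those with a lower median ran from 31.4 (Mpzl2) to 679 (Prx). Among matrix genes Col1a1 was at 10.7, Dcn at 15.4 and Ogn at 87.8, and the others were lower. Per transcript length the order differs somewhat: in HOM 3, Ptgds was the most abundant member at 1004 TPM (785 TPM in the median of the others), followed by Pmp22 at 929 TPM (114 TPM), Prx at 191 TPM (0.28 TPM), Dcn at 181 TPM (11.0 TPM) and Drp2 at 149 TPM (18.3 TPM). No test compares the families, since HOM 3 is 1 library and members are not replicates.

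**Figure D2:**
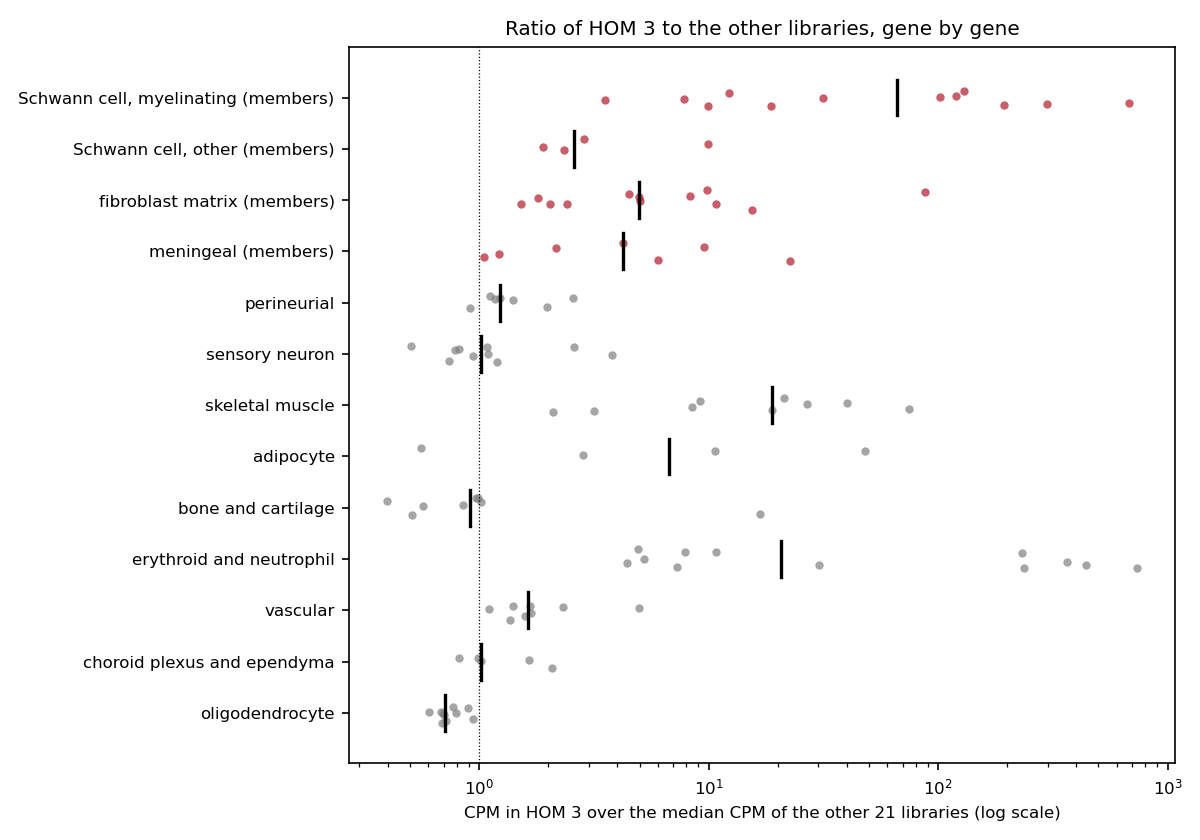
Ratio of the CPM in HOM 3 to the median CPM of the other 21 libraries, on a log scale, for each member (red points) and each gene of the lists of other cell types (grey points); bars are the list medians, and genes with a median of 0 elsewhere are not drawn. The myelinating Schwann cell members have a median of 66.5 and the fibroblast matrix members one of 4.98, while oligodendrocyte genes have one of 0.711.

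Genes of the same cells that are not members were counted as well. Of the 18 further Schwann cell genes, 8 were highest and 4 lowest in HOM 3, with a median ratio of 1.12. Over all tested genes HOM 3 was highest for 17.1% and lowest for 12.3%. Of the 19 further fibroblast and meningeal genes, 13 were highest and 0 lowest, with a median of 2.01; Col15a1, a basement membrane collagen, was at 43.0 CPM in HOM 3, against a median of 11.7 CPM, and Pdgfra, a receptor of fibroblasts and of oligodendrocyte precursors, at 46.0 against 46.4 CPM. Cdh1, picked after its values were seen, reached 22.9 CPM in HOM 3, and its highest level elsewhere was 1.19 CPM; E-cadherin is known both in the arachnoid and in junctions within the Schwann cell.

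Markers of other cells moved with these genes in HOM 3, and their part in the result was not tested. All 12 erythroid and neutrophil genes were highest in HOM 3 (median ratio 20.6, sum 2472 CPM, against 257 to 1052 CPM elsewhere), with the highest levels for Hbb-bs at 781 CPM and Hba-a2 at 559 CPM, globin genes with near-identical copies that share reads. The highest ratios in that list were those of neutrophil granule genes, picked after their values were seen: Camp was at 25.7 CPM in HOM 3 (738-fold above the median of the others), Ltf at 58.8 CPM (440-fold), Ngp at 89.8 CPM (366-fold), S100a9 at 96.6 CPM (236-fold) and S100a8 at 70.8 CPM (232-fold), while Hbb-bs had the smallest ratio, 4.41. All 10 skeletal muscle genes were highest there, with a median ratio of 18.9 over the 9 that have one, and their sum was 18.0 CPM, against 1.07 to 2.21 CPM elsewhere, with Acta1 at 4.38 and Myh4 at 2.89 CPM. All 8 vascular genes were highest (median 1.62, sum 470 CPM, against 267 to 351 CPM), with Rgs5 at 190.1 and Flt1 at 109 CPM, as were 5 of 8 perineurial genes (median 1.23, sum 415 CPM, against 279 to 358 CPM), with Slc2a1 at 191 and Itgb4 at 84.6 CPM. Adipocyte genes summed to 2.86 CPM in HOM 3, against 0.112 to 0.571 CPM, with Fabp4 at 1.79 and Cfd at 0.365 CPM, and 4 of 8 were highest, with a median ratio of 6.72 over the 4 that have one. Sensory neuron genes did not follow as a list: 2 of 12 were highest, and the ratios had a median of 1.01 (0.502 to 3.78). Their sum was 784 CPM in HOM 3, against 910 to 1175 CPM. Nefh, at 710 CPM, made up most of it, with Prph at 33.9 CPM, Scn10a at 0.0912 CPM and Mrgprd at 0. In HOM 3, 6 of the 12 were under 1 CPM, and the sum says little about those. Bone and cartilage genes summed to 57.0 CPM, against 57.3 to 76.9 CPM, with 2 of 10 highest, Acan at 31.2 and Alpl, also listed with the meninges, at 11.3 CPM and Mepe at 0. Choroid plexus and ependymal genes summed to 42.0 CPM, against 35.1 to 44.6 CPM, with 3 of 6 highest, Foxj1 at 29.2 and Kl at 5.71 CPM. Of 10 oligodendrocyte genes 0 were highest and 7 lowest in HOM 3, which was lowest for 12.3% of all tested genes. They summed to 11906 CPM, against 14429 to 17531 CPM elsewhere, with Mobp at 2002 CPM.

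Homozygous cords were then compared with wild type cords over all genes. None of the members passed the test in HOM against WT (edgeR quasi-likelihood test, Benjamini-Hochberg adjusted p below 0.05), when 16 of 16974 genes, 0.0943%, did. The filter on low counts kept 13 Schwann cell members (not Pmp2, Mpzl2 and Dhh) and 18 fibroblast and meningeal members (not Slc47a1 and Slc22a6). All 13 and 17 of the 18 had a log2 fold change above 0, against 53.7% of all tested genes, with medians of 0.94 and 0.42 beside a median of 0.01 over all tested genes. Without HOM 3, 5 of 13 and 9 of 18 lay above 0, against 51.2%, with medians of -0.01 and 0.0034, and again no member passed, when 0.0944% of 16951 genes did. An unadjusted p below 0.05 was reached by 5 Schwann cell members and 1 fibroblast and meningeal member with all libraries (5.91% of tested genes) and by 0 and 0 without HOM 3 (6.48%). DESeq2 and limma-trend on TPM called 0 members as well, though DESeq2 replaced the HOM 3 counts of 12 Schwann cell and 9 fibroblast and meningeal members as outliers. With the title number as a covariate and HOM 3 kept, the medians were 0.27 and 0.09.

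Several single members show the same shift, while Ptgds, Col6a1 and Cdh19 moved little. Prx had a log2 fold change of 5.82 in HOM over WT with all libraries (SE 2.01, adjusted p = 0.704) and of -0.21 without HOM 3 (95% interval -0.60 to 0.18, adjusted p = 0.840). Cldn19 was at 5.08 (SE 1.79, adjusted p = 0.730) with HOM 3 and 0.17 without it (-0.54 to 0.89), and Plekha4 at 3.47 and 0.09 (-0.16 to 0.33). For Pmp22 and Drp2, with many reads in every library, the intervals without HOM 3 were narrow. Pmp22 was at 0.91 with all libraries and -0.05 without HOM 3 (-0.15 to 0.05), and Drp2 at 0.70 and -0.06 (-0.14 to 0.03). Col1a2 was at 0.47 and -0.00072 (-0.13 to 0.12), Dcn at 1.21 and -0.09 (-0.24 to 0.06), and Ptgds at 0.07 and 0.06 (-0.15 to 0.26). Ogn was at 3.03 with all libraries and -0.17 without HOM 3 (-0.52 to 0.19), and Col1a1 at 1.08 and 0.16 (-0.04 to 0.36). Scn7a was at 0.94 and -0.00071 (-0.26 to 0.26), Cdh19 at 0.14 and -0.03 (-0.23 to 0.17), Igf2 at 0.23 and -0.19 (-0.43 to 0.04), and Col6a1 at -0.01 and -0.09 (-0.30 to 0.12).

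**Figure D3:**
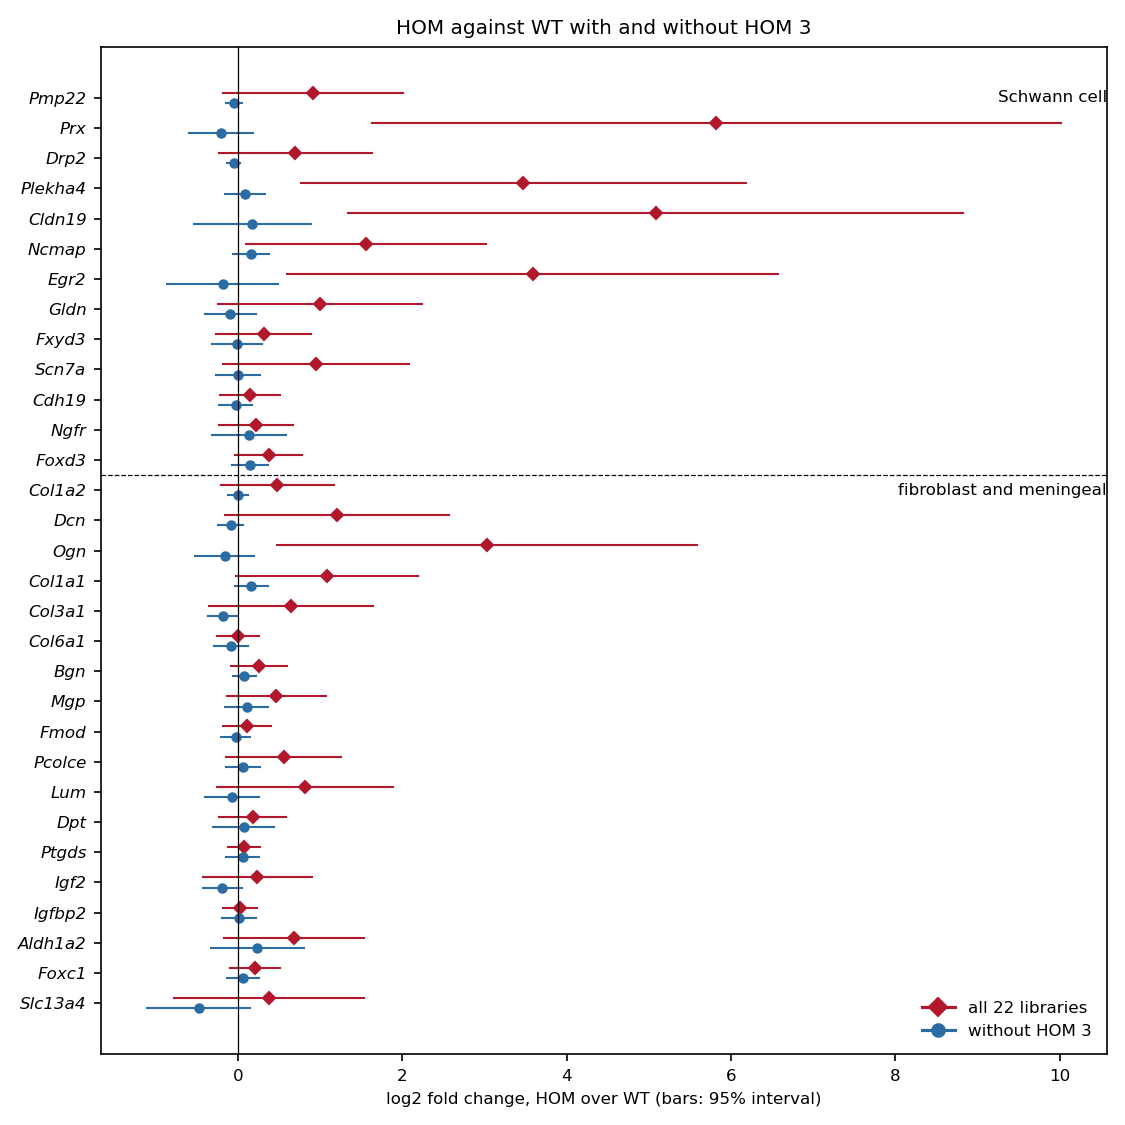
Log2 fold change of HOM over WT for the 31 tested members with its 95% interval, from all 22 libraries (diamonds) and without HOM 3 (circles); Schwann cell members are above the dashed line. With HOM 3 the values reach 5.82 for Prx, and without it every interval spans 0 and the medians are -0.01 for Schwann cell and 0.0034 for fibroblast and meningeal members.

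Heterozygous cords gave no member past the test against WT, as for all genes: edgeR called 0 of 16974, and 578 genes, 3.41%, had an unadjusted p below 0.05 (DESeq2 and limma-trend also called 0). Fibroblast and meningeal members lay mostly below 0 in HET over WT, 15 of 18 against 48.1% of tested genes, with a median of -0.12. The Schwann cell members had 7 of 13 above 0 (51.9%) and a median of 0.0018. With the title number as a covariate, 7 of 18 and 11 of 13 lay above 0, with medians of -0.03 and 0.23. Over all tested genes 9039 of 16974 lay above 0 in that fit. Without HOM 3 an unadjusted p below 0.05 was reached by Mgp, Igf2 and Dcn, all lower in HET, and by Egr2, higher in HET (4.28% of tested genes), and with all libraries by 0 members. The 6 HET libraries averaged 3.60 CPM of Mgp (SD 0.471) and the 6 WT libraries 4.85 CPM (SD 1.12), a log2 fold change of -0.43 without HOM 3 in the fit (SE 0.143, adjusted p = 0.9998). For Egr2 the averages were 0.407 CPM over the 6 HET libraries (SD 0.215) and 0.220 CPM over the 6 WT libraries (SD 0.0619), and HET 3 alone was at 0.809 CPM. Its log2 fold change was 0.88 (SE 0.317, adjusted p = 0.9998) without HOM 3, and 0.56 without HET 3, with HOM 3 kept in the fit. Both genes, chosen after their values were seen, had overlapping groups.

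Set against heterozygous cords, homozygous cords again gave no member past the test, when 18 genes, 0.106%, passed. The comparison shares its HOM libraries with HOM against WT. With all libraries 13 of 13 Schwann cell and 17 of 18 fibroblast and meningeal members were above 0 (53.0% of tested genes), with medians of 0.84 and 0.56. Without HOM 3 these were 6 of 13 and 16 of 18 (50.5%), with medians of -0.01 and 0.12. With the title number as a covariate as well, 6 of 13 and 13 of 18 lay above 0, with medians of -0.01 and 0.09. Over all tested genes 8549 of 16951 lay above 0 in that fit. An unadjusted p below 0.05 was reached by 4 Schwann cell and 6 fibroblast and meningeal members with all libraries (8.8%), and by 2 and 3 without HOM 3 (8.85%). Mgp averaged 5.21 CPM in the other 9 HOM libraries (SD 0.963) and 3.60 CPM in HET, a log2 fold change of 0.53 without HOM 3 (SE 0.131, adjusted p = 0.110). DESeq2 without HOM 3 called Mgp (adjusted p = 0.0301), and over the other fits its adjusted p reached 0.9996. Egr2 was at -1.07 without HOM 3 (SE 0.293, adjusted p = 0.181) and at 2.71 with it.

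Apart from HOM 3, a wild type library, WT 1, held the highest level of several members. It was singled out after the values were seen. Among the 21 libraries other than HOM 3, WT 1 was the highest for 7 of the 36 members, 4 of them meningeal, against 3.42% of tested genes. Slc13a4 was at 1.59 CPM in WT 1 and at most 0.582 CPM in the other 20 libraries, and Slc47a1 had 14 counts in WT 1 and 31 in the other 20 together. Slc22a6 had 6 counts in WT 1 and 7 in the other 20, so these transporters rest on few reads. Ptgds was at 353 CPM in WT 1 and at most 307 CPM elsewhere, and Mgp at 6.86 and at most 6.44 CPM. Mpzl2 had 17 counts in WT 1 and 55 in the other 20 libraries, and Prx was at 1.31 CPM, against at most 1.23 CPM. Aldh1a2, at 3.14 CPM in WT 1, lay just under HOM 2 at 3.15 CPM. This gene split by title number. Libraries of 39992 were at 2.14 to 2.72 TPM apart from HOM 3, at 8.23 TPM. Those of 40411 and 40412 were at 0.63 to 1.53 TPM. WT 1 is the only WT library of 39992, and what sets this split was not tested. Of the 4 collagens among the members, none was highest in WT 1; Col1a2 was at 35.3 CPM there and had a median of 34.998 CPM in the other 20 libraries. Col6a2, a collagen outside the members, was highest in WT 1, at 13.3 CPM, against at most 11.3 CPM in the other 20. Outside the members, Cdh1 was at 1.19 CPM in WT 1 and at most 0.257 CPM in the other 20.

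**Figure D4:**
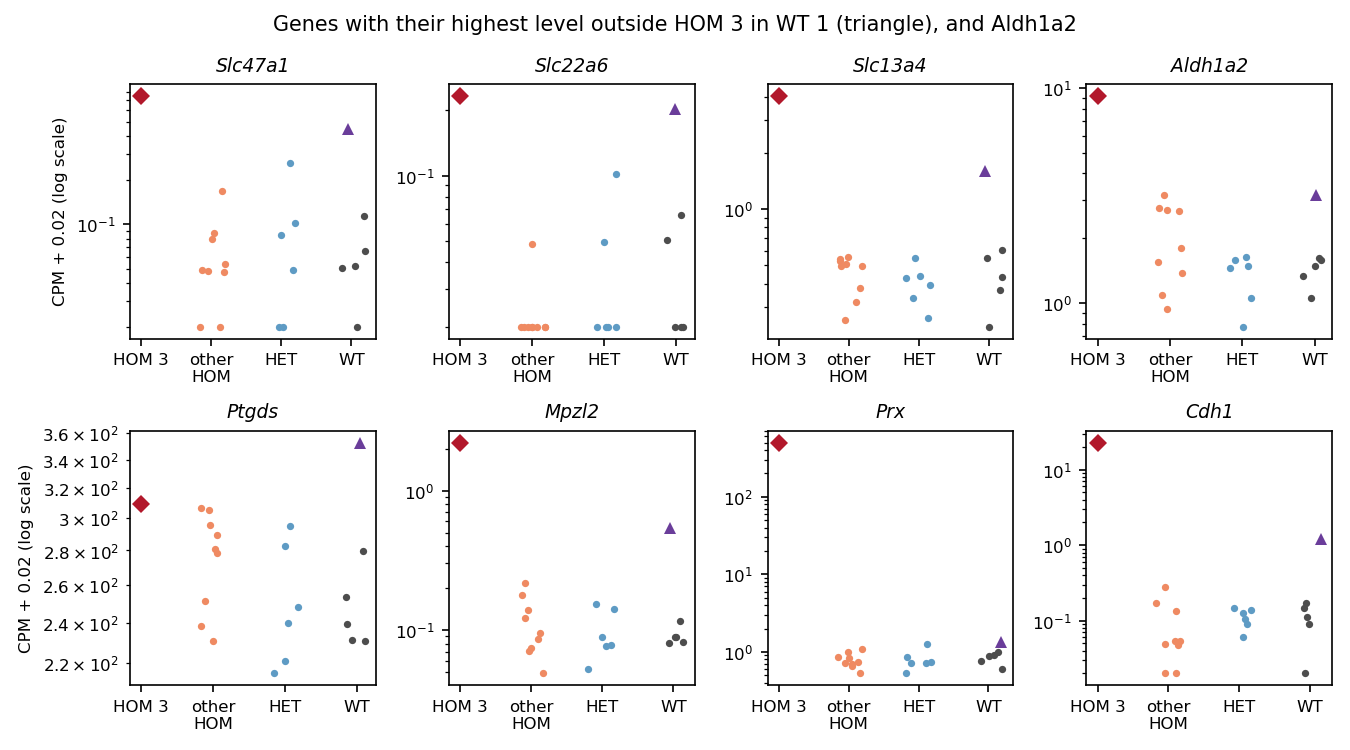
CPM + 0.02 on a log scale for 8 genes in HOM 3 (diamond), the other 9 HOM, the 6 HET and the 6 WT libraries, with WT 1 as a triangle; Cdh1 is not a member. WT 1 is the highest library after HOM 3 for 6 of the 8 genes; for Ptgds, at 353 CPM, it lies above HOM 3, and for Aldh1a2 HOM 2 lies just above it.

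Whether members vary together without HOM 3 was asked for 8 gene pairs over the other 21 libraries, on log2(CPM + 1), with two-sided permutation tests. None passed after adjustment over the 8 pairs. Slc22a6 with Slc47a1 had the largest correlation (Pearson r = 0.67, permutation p = 0.0219, adjusted p = 0.157; Spearman rho = 0.18, permutation p = 0.435, adjusted p = 0.935), and without the 2 libraries farthest from the median, WT 1 and HET 6, r was -0.17. Col1a1 with Col1a2 had r = 0.42 (permutation p = 0.0590, adjusted p = 0.157; rho = 0.31, p = 0.168), and 0.53 without HOM 2 and HOM 9. Within the title numbers that hold at least 6 of these libraries, its r was 0.80 in 40411 (n = 6, exact permutation p = 0.0556) and 0.49 in 40412 (n = 10, permutation p = 0.151). Prx with Ncmap had r = -0.04 (permutation p = 0.880; rho = -0.06) and Prx with Col1a2 r = 0.04 (permutation p = 0.849; rho = 0.02). Over all pairs of tested members the median Spearman rho was -0.04 for 78 Schwann cell pairs and 0.11 for 153 fibroblast and meningeal pairs (0.20 for the 66 matrix pairs and 0.13 for the 15 meningeal pairs within them), values that share library and depth and carry no test.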

How the data were processed

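Per the labels' protocols, 22 stranded, polyA-selected libraries of spinal cord were sequenced from both fragment ends. Each has a gene table that the authors deposited with expected counts, TPM and FPKM, per the file headers; FPKM were not used. Bowtie2 2.2.0 and RSEM 1.2.12 are named in the submitters' processing notes. Not given in the sources used here are their roles, the genome build, the annotation and the strand setting. Reads of similar genes are split in the deposited expected counts, so 14.4% to 16.2% of values per library were not whole. The deposited TPM values are scaled by the authors to transcript length.

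Expected counts were rounded. Genes were kept by filterByExpr with genotype as group (16974 genes, 16951 without HOM 3). A single edgeR 4.0.16 fit (R 4.3.3; TMM, robust quasi-likelihood) held the 22 libraries of all genotypes. Adjustment ran over all tested genes, called below 0.05, and standard errors were derived from the F statistic. DESeq2 1.42.0 and limma 3.58.1 on log2(TPM + 1) were alternatives. Levels add no pseudocount, and figures on a log axis add 0.02 CPM. Fitted fold changes of genes with few reads depend on the prior count. Intervals on levels are exact 95% Poisson intervals. Reads carry no molecular identifiers, so they cover counting error only. The fit was tested on simulated counts made without HOM 3 and with no outlying library. That check does not cover the fit of all 22 libraries.

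Symbols and GRCm38 positions (GENCODE M21) were matched by Ensembl ID for 37607 of 38924 IDs. The members, the 156 listed genes (1 without a match) and the named genes were chosen with earlier results of these data known. The named genes are the 6 members of each family with the highest CPM in HOM 3, the 3 of each with the highest median elsewhere, and the 2 genes of every other list with the highest CPM in HOM 3. Genes of that rule that are missing from the text are not reported here. Further genes with tests were chosen after their values were seen. No libraries were identical. Permutation tests drew 100000 resamples, or all orders where n was 6. Alternatives were fits without each library, with the title number as covariate, within the groups compared, and with other tools, scalings, filters and units.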

Additional observations from a re-analysis of the deposited data

Results flagged for a closer look

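A member was marked in a genotype when 1 library stood apart from the rest of its group by Dixon's ratio at the 95% critical value, tested with HOM 3 in the HOM group. This happened in 44 of 108 tests of a member in a genotype. In 31 of them HOM 3 was the high library; since HOM 3 was set apart with its values known, these restate that choice and support nothing. The other 13 were in HET and WT, and chance marks about 1 in 20 groups. The tests share libraries, so they are not independent.

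Among Schwann cell members HOM 3 stood apart as the highest HOM library for Pmp22 (734 CPM), Prx (500.0), Drp2 (467), Plekha4 (96.0), Cldn19 (72.7), Scn7a (55.5), Cdh19 (41.4), Ncmap (34.3), Dhh (26.0), Egr2 (24.99), Gldn (20.2), Fxyd3 (12.9), Pmp2 (7.93), Foxd3 (5.17) and Mpzl2 (2.19). Ngfr was the 1 Schwann cell member that was not marked in any genotype.

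The fibroblast and meningeal members marked in HOM 3 were Col1a2 (174 CPM), Dcn (161), Ogn (108), Col1a1 (89.3), Igf2 (59.0), Col3a1 (40.0), Bgn (29.0), Mgp (20.002), Fmod (17.5), Pcolce (12.6), Lum (11.0), Aldh1a2 (9.15), Foxc1 (7.48), Slc13a4 (4.01), Slc47a1 (0.730) and Slc22a6 (0.213). Not marked in HOM were Col6a1, Dpt, Ptgds and Igfbp2.

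Outside HOM 3, WT 1 was the high library of WT for Aldh1a2 (3.14 CPM), Slc13a4 (1.59), Mpzl2 (0.518), Slc47a1 (0.427) and Slc22a6 (0.183). WT 1 is the only WT library of title number 39992, whose HOM libraries were also high for Aldh1a2. WT 6 was the low library of WT for Pmp22 (60.7 CPM), Col6a1 (17.2), Col1a1 (6.51) and Dpt (0.348), and WT 2 the high one for Lum (1.77). In HET, HET 3 was high for Egr2 (0.809 CPM), HET 5 for Slc47a1 (0.244) and HET 6 for Slc22a6 (0.0815).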

How the results depend on the processing

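No paired analysis was possible because the replicate numbers are an order of deposition and the labels pair no libraries. No member was called in any fit, except Mgp in HOM against HET by DESeq2 without HOM 3 (0.53, adjusted p = 0.0301). The covariate and DESeq2 fits without HOM 3 and the ratio over pooled counts were chosen after seeing the data; DESeq2 with all libraries replaced the HOM 3 counts of 12 Schwann cell and 9 fibroblast and meningeal members, and the cause of the other shifts was not tested. Depth limits Slc22a6, Slc47a1 and Mpzl2, which rest on few counts.

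Genes called in HOM against WT were 16, with 12 to 19 when each library was left out in turn, 28 by DESeq2 and 40 by DESeq2 without HOM 3. In HOM against HET the 18 became 10 to 39 (11 without HOM 1, 11 without HOM 4, 10 without HET 3 and 39 without HOM 10), 10 with the title number as covariate, 72 by DESeq2, 80 by DESeq2 without HOM 3 and 11 on TPM. HET against WT gave 0 throughout. Members called were 0 of each family throughout the libraries left out in turn.

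The Schwann cell median of HOM over WT ran from -0.013 (without HOM 3) to 1.03 over libraries left out; it was -0.023 by DESeq2, -0.042 by DESeq2 without HOM 3 and -0.020 with the covariate without HOM 3. That of the fibroblast and meningeal members ran from 0.0034 to 0.52, and was -0.017 by DESeq2 and -0.0077 with the covariate, both without HOM 3; with all libraries it was 0.037 by DESeq2, 0.093 with the covariate and 0.20 on TPM. In HOM over HET the Schwann cell median ran from -0.011 to 0.93; it was 0.077 with the covariate and -0.011 with it without HOM 3, 0.037 by DESeq2 and -0.017 by DESeq2 without HOM 3. The fibroblast and meningeal median there ran from 0.12 to 0.62, and was 0.091 with the covariate and 0.10 by DESeq2, both without HOM 3; with all libraries it was 0.16 by DESeq2, 0.16 with the covariate and 0.26 on TPM. On TPM the Schwann cell median was 0.28 in HOM over WT and 0.22 in HOM over HET, and without the filter on low counts that of HOM over HET was 1.27. In HET over WT the ranges were -0.045 to 0.035 and -0.16 to -0.096, and with the covariate the medians were 0.23 and -0.032.

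The median ratio of HOM 3 was 16.7 for Schwann cell members on TPM, 16.5 by the plain total, 14.8 over the other 9 HOM libraries, 15.2 over the mean and 15.1 over pooled counts. For fibroblast and meningeal members it was 4.80 on TPM, 5.27 by the plain total, and 5.04 both over the mean and over pooled counts.

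Single genes in HOM over WT changed sign as follows, each with DESeq2, with the covariate without HOM 3 and with DESeq2 without HOM 3: Pmp22 -0.045, -0.084 and -0.052; Prx -0.21, -0.30 and -0.22; Drp2 -0.057, -0.020 and -0.059; Scn7a -0.00079, -0.082 and -0.0028; Col1a2 -0.0046, -0.0040 and -0.0031; Dcn -0.092, -0.076 and -0.093; Ogn -0.18, -0.21 and -0.17; Igf2 -0.19, -0.17 and -0.20; Egr2 -0.18, -0.12 and -0.20. Cdh19 was -0.043 with the covariate, -0.11 with it without HOM 3 and -0.032 by DESeq2 without HOM 3, and Col6a1 0.020 with the covariate and 0.016 on TPM. Over libraries left out the lowest and highest values were Pmp22 -0.050 and 1.00, Prx -0.21 and 5.97, Drp2 -0.056 and 0.77, Scn7a -0.00071 and 1.04, Cdh19 -0.031 and 0.19, Col1a2 -0.00072 and 0.54, Dcn -0.091 and 1.30, Ogn -0.17 and 3.19, Igf2 -0.19 and 0.30, Col6a1 -0.088 and 0.038, and Egr2 -0.19 and 3.73. In HOM over HET Egr2 ran from -1.07 to 3.02, and was -0.054 with the covariate, -0.87 with it without HOM 3, -1.07 by DESeq2 and -1.08 by DESeq2 without HOM 3. In HET over WT Egr2 was -0.012 on TPM and Dcn 0.0021 with the covariate.

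Correlations that changed sign without the 2 farthest libraries were Prx with Ncmap (0.13), Slc22a6 with Slc47a1 (-0.17), Ptgds with Slc22a6 (-0.15) and Ptgds with Mobp (-0.18). Within title number 40411 (n = 6) they were Prx with Ncmap (0.47), Slc22a6 with Slc47a1 (-0.30), Prx with Col1a2 (-0.022) and Ptgds with Slc22a6 (-0.28), and within 40412 Prx with Col1a2 (-0.0025), Prx with Slc22a6 (-0.00093) and Ptgds with Mobp (-0.13). On TPM, Slc22a6 with Slc47a1 passed (r = 0.75, adjusted p = 0.0294).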
